A study of Rattus norvegicus with 12 samples.

Results

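Nr1d1 and Nr1d2, which encode the nuclear receptors REV-ERB alpha and REV-ERB beta, and Dbp, which encodes a D-box-binding transcription factor, were followed over 12 Affymetrix rat arrays. All probe sets with 1 of these names as their single symbol in the platform annotation were taken: 1370816_at for Nr1d1, 1390430_at, 1370541_at and 1370540_at for Nr1d2, and 1387874_at for Dbp, 5 of 31099 probe sets, for 3 of the 14218 genes named by a single symbol. All 5 passed the filter on low signals, a tissue mean over both treatments above 112.3, in every tissue. In the nerve, Nr1d2 1370540_at passed only through its acrylamide arrays (mean 161.5), since its saline mean was 103.0. The genes were chosen by their log2 differences between acrylamide and saline arrays, which were known from earlier work on these data, so their differences between acrylamide and saline are given below as a description, with no test.

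The study dosed male Wistar rat pups by gavage with acrylamide at 30 mg/kg per day for 21 days, or with saline, and profiled sciatic nerve, spinal cord and cerebellum. Acrylamide is an electrophilic monomer that reacts with thiol groups and is known to damage long axons. The 6 groups were acrylamide-treated and saline-treated sciatic nerve, acrylamide-treated and saline-treated spinal cord, and acrylamide-treated and saline-treated cerebellum, each with 2 arrays and each array with tissue pooled from 2 rats. The animals were 25 days old at the start per the sample labels and 3 weeks old per the series text, they carried no transgene that the labels name, and one label field calls the control solvent. The labels can be read as collection at the end of daily dosing or 21 days after it. They state a cycle of 12 h light and 12 h dark, and the time of day at collection is not given in the sources used here.

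REV-ERB receptors bind haem, lack the helix with which other nuclear receptors recruit coactivators, and repress genes through the corepressor NCOR1 and the deacetylase HDAC3. In mouse tissues their targets include Bmal1, Clock, Npas2, Cry1 and Nfil3, which makes them the second loop of the circadian clock, and BMAL1 and CLOCK in turn switch on Nr1d1, Nr1d2 and Dbp through E-box sequences that the PER and CRY proteins silence. DBP passes the rhythm on to genes with D-box sequences, where NFIL3 acts as its opponent. In rodent tissues the messenger RNA of all 3 genes swings over the day.

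The start regions of the genes are shown because the E-box is the best known route by which the clock acts on them. RefSeq windows of build GRCr8, from 250 bases before to 50 bases after a start site, were found for all 3 genes, with a pair of start sites for Nr1d1. Capitals mark a match to any of 4 motif types searched on both strands: the E-box CACGTG, its variant CACGTT, the D-box as TTATGTAA or TTATGCAA, and the hexamer AGGTCA bound by many nuclear receptors.
Nr1d1 window 1, chr10:84231763-84232062, minus strand: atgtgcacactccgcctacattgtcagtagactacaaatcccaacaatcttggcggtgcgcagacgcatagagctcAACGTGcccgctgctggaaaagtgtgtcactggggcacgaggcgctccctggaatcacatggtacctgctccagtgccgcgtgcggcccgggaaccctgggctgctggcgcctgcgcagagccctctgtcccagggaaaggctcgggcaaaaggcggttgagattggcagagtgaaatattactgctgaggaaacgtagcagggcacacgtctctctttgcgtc
Nr1d1 window 2, chr10:84229405-84229704, minus strand: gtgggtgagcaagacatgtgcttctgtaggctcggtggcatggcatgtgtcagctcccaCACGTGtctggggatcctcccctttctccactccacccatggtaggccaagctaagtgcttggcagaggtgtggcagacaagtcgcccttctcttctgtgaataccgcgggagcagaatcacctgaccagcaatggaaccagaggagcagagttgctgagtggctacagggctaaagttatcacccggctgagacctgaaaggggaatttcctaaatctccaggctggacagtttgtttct
Nr1d2, chr15:9954784-9955083, plus strand: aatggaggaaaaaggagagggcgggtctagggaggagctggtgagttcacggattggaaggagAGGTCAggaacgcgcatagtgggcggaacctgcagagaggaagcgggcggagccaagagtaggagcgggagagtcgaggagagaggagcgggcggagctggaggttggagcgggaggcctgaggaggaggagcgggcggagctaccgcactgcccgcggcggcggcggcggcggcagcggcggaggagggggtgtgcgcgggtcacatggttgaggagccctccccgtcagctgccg
Dbp, chr1:105312006-105312305, plus strand: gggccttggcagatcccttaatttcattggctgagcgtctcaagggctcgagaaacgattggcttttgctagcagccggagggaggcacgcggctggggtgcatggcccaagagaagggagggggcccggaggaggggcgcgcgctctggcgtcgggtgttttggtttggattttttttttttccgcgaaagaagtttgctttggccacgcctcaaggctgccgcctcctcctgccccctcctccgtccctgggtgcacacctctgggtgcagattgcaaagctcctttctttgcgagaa

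Window 1 of Nr1d1 held CACGTT, read on the opposite strand, 174 to 169 bases before its start site. Window 2 of Nr1d1 held the E-box CACGTG 191 to 186 bases before the start site of that transcript. The Nr1d2 window held no E-box, and had AGGTCA 187 to 182 bases before the start. None of the 4 motif types lay in the Dbp window, which says nothing of sites elsewhere in the gene. Such matches are common: of 33469 rat promoter windows of the same length, 6.42% held CACGTG, 4.83% CACGTT, 1.73% a D-box and 16.2% AGGTCA. Among 25 other clock genes with a window, 4 held CACGTG (Bhlhe40, Bhlhe41, Ciart and Tef), 3 CACGTT (Bmal2, Cry2 and Per2), 1 a D-box (Per2) and 3 AGGTCA (Bmal1, Fabp7 and Usp2). The share of G and C was 59.7% in the Dbp window, 68.7% in that of Nr1d2, and 59.0% and 54.7% in windows 1 and 2 of Nr1d1, beside a median of 51.7% over all windows.

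In GRCr8, Nr1d1 lies on the minus strand of chromosome 10 (84224599 to 84231812), and its 3′ end overlaps by 1061 bases the 3′ end of Thra, the thyroid hormone receptor alpha gene on the plus strand. Nr1d2 lies on the plus strand of chromosome 15 (9955034 to 9981329), with Thrb, the thyroid hormone receptor beta gene, on the minus strand 134624 bases downstream. Dbp lies on the plus strand of chromosome 1 (105312256 to 105317205). The platform table used here does not place the probes, so whether the Nr1d1 probes fall in the stretch shared with Thra was not looked up.

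Signals are in arbitrary linear units after the submitters' scaling of each array, and differences are on the scale of log2(signal + 16) with the standard error from a limma model over all 12 arrays. The array medians ran from 161.8 to 199.0, and 2 arrays per group limit the precision. Of markers listed for each tissue, 4 of 4 Schwann cell genes, 4 of 5 spinal cord genes and 7 of 7 cerebellar genes were higher on every array of their own tissue than on any other array. Some arrays also carried markers of other tissues. On acrylamide-treated nerve replicates 1 and 2, the 7 cerebellar markers summed to 16.92% and 1.0% of their cerebellar level, against 12.77% and 1.13% on saline nerve replicates 1 and 2. In the cord, the 4 Schwann cell markers summed to 10064.2 and 8207.6 on the acrylamide arrays, against 12828.5 and 15508.8 on the saline arrays. These groups stay separate when saline cord replicate 1 is left out. The 5 muscle markers summed to 437.0 and 431.7 on the acrylamide cord arrays, against 33497.5 and 842.5 on the saline cord arrays. In the nerve they summed to 1488.3 and 17007.4 on the acrylamide arrays, against 4433.7 and 621.4 on the saline arrays, and the 5 fat cell markers to 4978.6 and 7303.4 against 20483.2 and 3400.9. Values are given below without 3 of these arrays: replicate 1 of both nerve groups, which carried the cerebellar markers, and saline cord replicate 1, which carried muscle markers. Acrylamide nerve replicate 2, with the highest muscle sum of the nerve arrays, is not among the 3, and nerve values without it are given on their own. In pooled tissue, fewer cells of a type and less RNA per cell cannot be told apart.

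**Figure D1:**
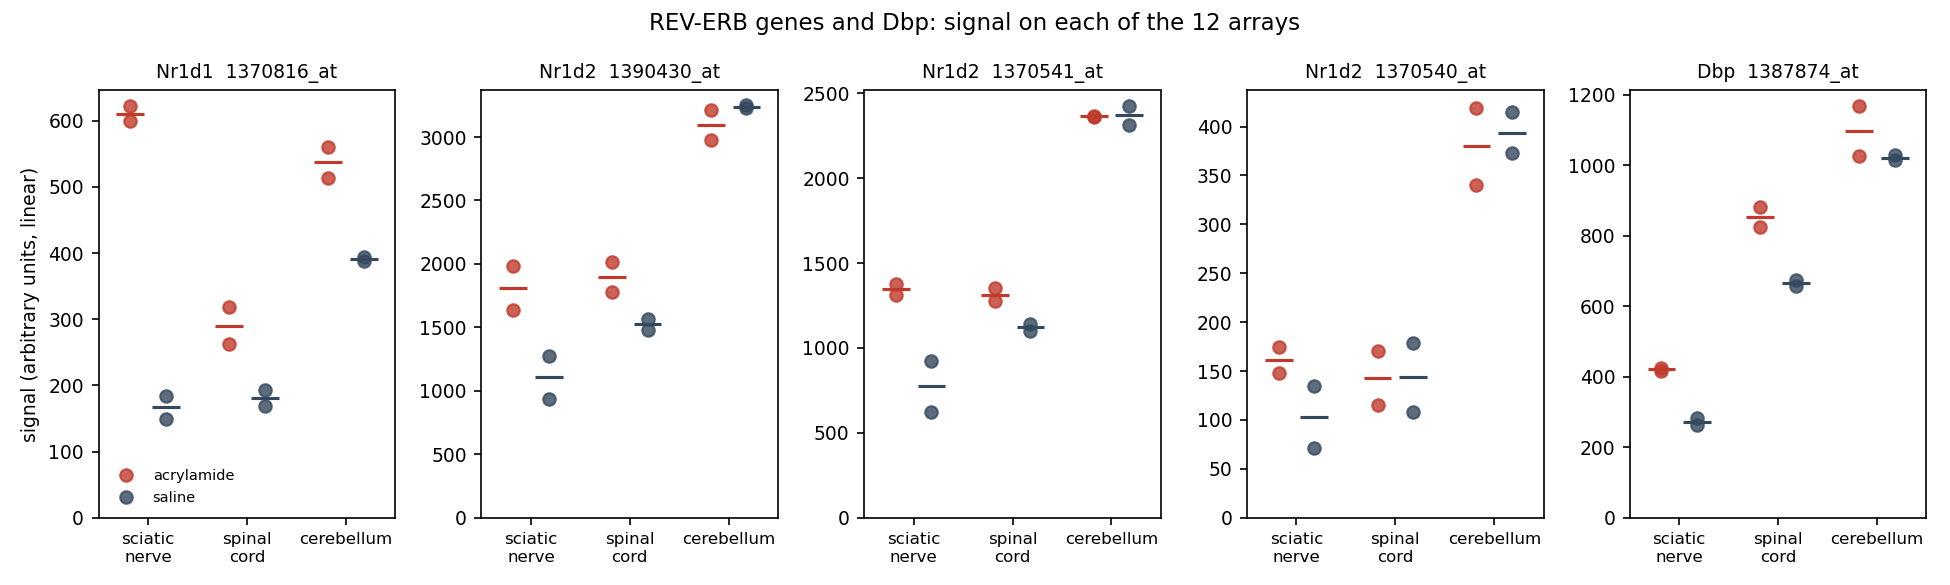
Signal (linear, arbitrary units) of the 5 probe sets on each of the 12 arrays, by tissue, with acrylamide in red and saline in dark blue; points are arrays and bars are means of 2 arrays. Nr1d1 on the acrylamide nerve arrays (599.3 and 621.9) stands above the saline nerve arrays (184.5 and 149.2), and in saline every probe set is highest in the cerebellum.

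The tissues were compared first in the saline arrays, a contrast that the choice of the genes did not use directly, although the same saline arrays enter the acrylamide contrast. A choice for high acrylamide minus saline differences, widest in the nerve, favours low saline values there. The p-values of the saline comparisons are therefore not free of the choice. All 3 genes had their highest saline signal in the cerebellum. Nr1d1 had saline signals of 184.5 and 149.2 in the sciatic nerve, 193.2 and 168.7 in the cord, and 393.5 and 388.0 in the cerebellum. The nerve and cord arrays overlapped, and both lay far below the cerebellum. Dbp had saline signals of 282.4 and 261.9 in the nerve, 673.9 and 657.0 in the cord, and 1030.3 and 1013.3 in the cerebellum, so its 3 tissues formed 3 separate steps. The brightest Nr1d2 probe set, 1390430_at, had saline signals of 1277.2 and 938.1 in the nerve, 1565.6 and 1480.0 in the cord, and 3250.8 and 3224.8 in the cerebellum. Here too the tissues did not overlap, with the nerve replicates farther apart than the others.

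All 5 probe sets were lower in the saline spinal cord than in the saline cerebellum. The log2 differences were -1.05 ± 0.14 for Nr1d1 (limma, Benjamini-Hochberg adjusted p = 0.000322) and -0.61 ± 0.10 for Dbp (limma adjusted p = 0.000793). For Nr1d2 they were -1.08 ± 0.15, -1.07 ± 0.15 and -1.40 ± 0.30 (limma adjusted p = 0.000306, 0.000367 and 0.00428) with 1390430_at, 1370541_at and 1370540_at. Over all 20459 probe sets tested, 27.1% were called lower in the cord at an adjusted p of 0.05. The differences in the acrylamide arrays, given with no test because they contain the contrast by which the genes were chosen, were -0.86 for Nr1d1, -0.70 for Nr1d2 (1390430_at) and -0.35 for Dbp.

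All 5 probe sets were also lower in the saline sciatic nerve than in the saline cerebellum, and Dbp had the smallest adjusted p. Its log2 difference was -1.85 ± 0.10 (limma adjusted p = 5.24e-07), which is 3.60-fold lower in the nerve. Nr1d1 differed by -1.16 ± 0.14 (limma adjusted p = 8.06e-05), and Nr1d2 by -1.55 ± 0.15 with 1390430_at (limma adjusted p = 1.56e-05), by -1.62 ± 0.15 with 1370541_at (1.36e-05) and by -1.83 ± 0.30 with 1370540_at (0.000518). Of all 20703 probe sets tested, 39% were called lower in the nerve. Centring every array on its median moved the median difference of all probe sets in this comparison by 0.20 and in the comparison of nerve with cord by 0.18, and with it the 3 genes remained lower in the nerve, by -0.96 for Nr1d1, -1.35 for Nr1d2 (1390430_at) and -1.65 for Dbp. Without the 3 arrays the differences between saline nerve and cerebellum were -1.30 for Nr1d1, -1.77 for Nr1d2 (1390430_at) and -1.90 for Dbp, those between cord and cerebellum -1.14, -1.12 and -0.62, and those between nerve and cord -0.16, -0.65 and -1.28, with the lone nerve and cord arrays assumed to vary like the other groups, and no call changed. In the acrylamide arrays the difference between nerve and cerebellum was 0.18 for Nr1d1, -0.77 for Nr1d2 and -1.35 for Dbp, again with no test.

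Between the saline sciatic nerve and the saline spinal cord, Dbp was lower in the nerve by -1.24 ± 0.10 on the log2 scale (limma adjusted p = 1.17e-05), or 2.37-fold. Nr1d2 was lower by -0.47 ± 0.15 with 1390430_at (limma adjusted p = 0.0207) and by -0.55 ± 0.15 with 1370541_at (0.0108), while 1370540_at, at -0.44 ± 0.30, did not pass (0.242). Nr1d1, at -0.11 ± 0.14, did not pass either (limma adjusted p = 0.528). The share of all 20238 probe sets called lower in the nerve was 28.7%, against 3 of the 5 probe sets and 2 of the 3 genes. The Nr1d2 calls did not hold under every alternative. Without saline nerve replicate 2, 1390430_at was at -0.25 (limma adjusted p = 0.138), without saline cord replicate 1 at -0.43 (0.097) and without saline cord replicate 2 at -0.51 (0.0552), and median centring gave -0.29 (0.0646). For 1370541_at, leaving out saline cord replicate 1 gave -0.52 (limma adjusted p = 0.0572), and a fit of only the groups compared -0.55 (0.0865). Averaging in the acrylamide arrays gave -0.26. That average was not planned and contains the contrast by which the genes were chosen, so it is given with no test. The dim 1370540_at passed at -0.83 without saline nerve replicate 1 (0.047). Nr1d1 changed its sign, at 0.07 under either other scaling and 0.03 without saline nerve replicate 2. In the acrylamide arrays the same difference was 1.04 for Nr1d1, -0.07 for Nr1d2 (1390430_at) and -0.99 for Dbp, with no test. On the acrylamide arrays Nr1d1 was higher in the nerve (599.3 and 621.9) than in the cerebellum (513.6 and 560.6), by 0.18 ± 0.14 on the log2 scale. On the saline arrays it was lower in the nerve (184.5 and 149.2) than in the cerebellum (393.5 and 388.0).

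The acrylamide contrast was the one by which the genes were chosen, and the values by array follow. Nr1d1 had both acrylamide arrays above both saline arrays in each tissue. In the sciatic nerve it had 599.3 and 621.9 on the acrylamide arrays and 184.5 and 149.2 on the saline arrays. The means were 610.6 ± 15.99 and 166.9 ± 24.95 (SD, n = 2 each), a ratio of 3.66 and a log2 difference of 1.78 ± 0.14. Only 4 of the 18161 probe sets tested in the nerve had a higher positive log2 difference. In the spinal cord Nr1d1 had 262.1 and 318.7 on the acrylamide arrays and 193.2 and 168.7 on the saline arrays, a log2 difference of 0.63 ± 0.14. In the cerebellum it had 513.6 and 560.6 on the acrylamide arrays and 393.5 and 388.0 on the saline arrays, a log2 difference of 0.44 ± 0.14. The groups were separate in all 3 tissues, with the widest gap in the nerve. This order in all 3 tissues was shared by 118 of 15807 probe sets tested in each, which is 0.747%. In a single tissue it was seen for 13.3% of probe sets in the nerve, 17.7% in the cord and 17.1% in the cerebellum. Averaged over the tissues, the Nr1d1 difference was 0.95 ± 0.08, and 3 of the 15807 probe sets had a higher one.

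Nr1d2, the paralogue with the same repressor role, had higher acrylamide signals in the nerve and cord but not in the cerebellum. With 1390430_at the nerve had 1985.5 and 1636.8 on the acrylamide arrays and 1277.2 and 938.1 on the saline arrays, a log2 difference of 0.71 ± 0.15. The cord had 2015.8 and 1780.8 on the acrylamide arrays and 1565.6 and 1480.0 on the saline arrays, a difference of 0.31 ± 0.15. The groups were separate in these tissues, and in the nerve the replicates of each group were far apart. In the cerebellum the order was turned, with 3215.8 and 2979.1 on the acrylamide arrays and 3250.8 and 3224.8 on the saline arrays, a difference of -0.06 ± 0.15 that is smaller than its standard error.

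The other Nr1d2 probe sets can be set beside it as separate readings of the same RNA. With 1370541_at the nerve had 1378.1 and 1312.0 on the acrylamide arrays and 924.1 and 625.0 on the saline arrays, and the log2 difference was 0.81 ± 0.15. In the cord the signals were 1351.6 and 1275.8 with acrylamide and 1143.7 and 1099.1 with saline (0.23 ± 0.15), and in the cerebellum 2360.7 and 2367.4 with acrylamide and 2426.4 and 2313.8 with saline, where the groups overlapped. The dimmest probe set, 1370540_at, had 148.1 and 175.0 on the acrylamide nerve arrays and 134.7 and 71.39 on the saline nerve arrays, a difference of 0.63 ± 0.30. Its groups overlapped in the cord (115.8 and 170.8 with acrylamide, 178.3 and 108.6 with saline) and in the cerebellum (340.2 and 419.5 with acrylamide, 372.6 and 415.1 with saline). The 3 probe sets thus had the same order in the nerve, and in the cord only the brighter ones had it. In the nerve 1370540_at passed the filter only through its acrylamide arrays, so its order there is no separate support. Without saline nerve replicate 2 the nerve differences were 0.49, 0.53 and 0.23, and without saline nerve replicate 1 they were 0.93, 1.09 and 1.02, for 1390430_at, 1370541_at and 1370540_at in that order.

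Dbp had separate groups in the nerve and the cord and overlapping ones in the cerebellum. In the nerve it had 425.1 and 416.0 on the acrylamide arrays and 282.4 and 261.9 on the saline arrays, means of 420.5 ± 6.5 and 272.2 ± 14.5 (SD, n = 2 each) and a log2 difference of 0.60 ± 0.10. In the cord it had 825.9 and 882.3 on the acrylamide arrays and 673.9 and 657.0 on the saline arrays, a difference of 0.35 ± 0.10. In the cerebellum it had 1024.9 and 1166.6 on the acrylamide arrays and 1030.3 and 1013.3 on the saline arrays, and acrylamide replicate 1 lay between the saline replicates. The difference there was 0.10 ± 0.10, and 0.0043 without acrylamide replicate 2.

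**Figure D2:**
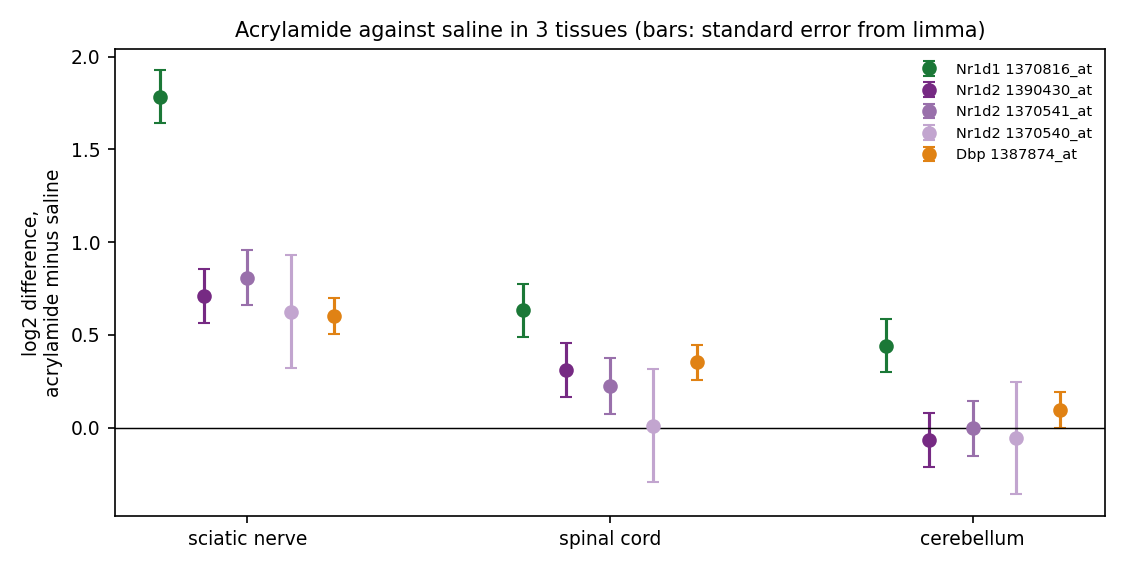
Log2 difference, acrylamide minus saline, of the 5 probe sets in sciatic nerve, spinal cord and cerebellum; bars are standard errors from limma with 2 arrays per group. Nr1d1 has the widest difference of the 5 in each tissue (1.78, 0.63 and 0.44), and the Nr1d2 and Dbp differences in the cerebellum reach 0.10 at most.

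All 5 probe sets had their widest positive difference in the nerve and their lowest value in the cerebellum. The marker signals given above differed between the replicates of both nerve groups. In the cord, the Schwann cell markers differed between the acrylamide and saline arrays. The 3 astrocyte markers summed there to 34601.7 and 35426.9 with acrylamide, against 32215.8 and 31291.2 with saline. In the cerebellum their sums were 20260.1 and 19571.6 against 16978.9 and 17214.8. In the nerve the astrocyte sums overlapped (6103.3 and 2857.6 against 3828.4 and 2073.2). The part of the markers in the differences of the 3 tissues was not tested as a cause. Without nerve replicate 1 of either group and saline cord replicate 1, which leaves 1 array in each nerve group, the nerve differences were 1.95 for Nr1d1, 0.79 for Nr1d2 (1390430_at) and 0.64 for Dbp, and the cord differences 0.72, 0.35 and 0.37. The acrylamide nerve array kept there had muscle markers summing to 17007.4, against 621.4 on the saline nerve array kept. Without that acrylamide array, replicate 2, and with all others, the nerve differences were 1.76 for Nr1d1, 0.85 for Nr1d2 (1390430_at) and 0.62 for Dbp. Over all probe sets the limma test called 1 of 18161 in the nerve (0.00551%), 0 of 18934 in the cord (0%) and 0 of 18780 in the cerebellum (0%), and 2 of 15807 for the average of the tissues (0.0127%), at an adjusted p of 0.05. Without nerve replicate 1 of both groups and saline cord replicate 1 it called 335 in the nerve, where 1 array is set against 1 and the spread comes from the other groups, 150 for the average and 2 in the cerebellum. Without acrylamide nerve replicate 2 it called 0 in the nerve, and without saline nerve replicate 1 it called 21.

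The other clock genes were read for whether they differed beside the 3 genes. Of 33 listed, 28 were on the arrays and 25 passed the filter. None passed the limma test in any acrylamide contrast, adjusted over all probe sets. At an unadjusted limma p under 0.05 there were 5 of 25 in the nerve, 2 of 25 in the cord, 1 of 25 in the cerebellum and 6 of 25 for the average. Over all probe sets the counts were 926 of 18161, 546 of 18934, 516 of 18780 and 868 of 15807, in that order. The share was larger among the listed genes in each, but the list was chosen with earlier results of these data known. The median log2 difference of the 25 genes was 0.02 in the nerve, 0.02 in the cord and -0.02 in the cerebellum. The medians of all probe sets were 0.0009, 0.004 and -0.0002. In the nerve 13 were higher and 12 lower with acrylamide, and in 7 both acrylamide arrays were above both saline arrays and in 4 below, beside 13.3% and 12.9% of all probe sets. In the cord 8 were above and 6 below, beside 17.7% and 15.9%, and in the cerebellum 6 were above and 10 below, beside 17.1% and 16.6%. Without nerve replicate 1 of both groups and saline cord replicate 1, 1 of the listed genes was called for the average.

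Among the genes with REV-ERB response elements, Nfil3, the repressor that opposes DBP, was below saline on both acrylamide arrays in all 3 tissues. It had 239.3 and 219.0 on the acrylamide nerve arrays and 385.8 and 324.1 on the saline nerve arrays, a log2 difference of -0.59 ± 0.15 (limma adjusted p = 0.836). In the cord it had 265.1 and 255.2 against 341.4 and 269.0 with saline, and in the cerebellum 351.6 and 322.9 against 431.1 and 367.6 with saline. The gap was thus narrow in the cord, where a saline array lay close to the acrylamide ones. The share of all probe sets below saline in all 3 tissues was not counted. In a single tissue it was 12.9% in the nerve, 15.9% in the cord and 16.6% in the cerebellum. The average difference of Nfil3 was -0.34 ± 0.09 (limma adjusted p = 0.54), the smallest p among the listed genes for the average, followed by Bhlhe41 (0.24 ± 0.07), Per3 (0.24 ± 0.07) and Bhlhe40 (0.27 ± 0.08).

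Cry1, whose protein silences BMAL1 and CLOCK, had 425.4 and 340.7 on the acrylamide nerve arrays and 503.2 and 510.7 on the saline ones, a log2 difference of -0.40 ± 0.11 (limma adjusted p = 0.895). Bmal1, the E-box activator that REV-ERB represses, had 251.4 and 325.4 on the acrylamide cord arrays and 347.8 and 374.4 on the saline ones, a difference of -0.32 ± 0.13 (limma adjusted p = 1). In the nerve the Bmal1 groups overlapped, with 553.1 and 622.3 on the acrylamide arrays and 592.6 and 581.4 on the saline arrays, while the ratio of acrylamide to saline means for Nr1d1 was 3.66 there. Clock, the partner of BMAL1, differed by -0.01 ± 0.08 in the nerve, 0.02 ± 0.08 in the cord and 0.06 ± 0.08 in the cerebellum, and Npas2, which can stand in for CLOCK, by -0.13 ± 0.26, -0.09 ± 0.26 and 0.18 ± 0.26. The dimmer Clock 1380098_at lay above saline in the cerebellum (0.39 ± 0.18) and below it in the cord (-0.25 ± 0.18), while 1389456_at overlapped in every tissue. The REV-ERB targets thus did not share one order: in the nerve Nfil3 and Cry1 were below saline, while Bmal1, Clock and Npas2 had overlapping groups. Hdac3, the deacetylase that REV-ERB recruits, differed by -0.24 ± 0.10 in the nerve and -0.16 ± 0.10 in the cord (limma adjusted p = 0.967 and 1), with both acrylamide arrays below saline in both.

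Among the genes that share E-box or D-box control with Dbp, Per3 was the listed gene with the smallest p in the nerve. It had 500.3 and 525.6 on the acrylamide arrays and 320.4 and 381.7 on the saline arrays, a log2 difference of 0.53 ± 0.12 (limma adjusted p = 0.7). In the cord Per3 had 294.5 and 286.7 with acrylamide and 226.4 and 255.7 with saline, and in the cerebellum 619.5 and 580.5 with acrylamide and 637.3 and 624.4 with saline. Its order was therefore above saline in nerve and cord and below saline in the cerebellum, as for Nr1d2 1390430_at. Bhlhe40, a repressor at E-boxes, differed by 0.54 ± 0.15 in the nerve (limma adjusted p = 0.895), from 292.6 and 364.2 with acrylamide and 215.0 and 225.3 with saline. Its relative Bhlhe41 had both acrylamide arrays above saline in all 3 tissues, by 0.24 ± 0.11 in the nerve, 0.33 ± 0.11 in the cord and 0.15 ± 0.11 in the cerebellum (limma adjusted p = 0.967, 1 and 1).

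Per1 and Per2, whose proteins work with the CRY proteins, were below saline in the cerebellum. Per2 had 625.8 and 464.5 there on the acrylamide arrays and 819.0 and 734.2 on the saline arrays, a log2 difference of -0.51 ± 0.18 (limma adjusted p = 1). Per1 had 365.6 and 287.3 there with acrylamide and 553.7 and 587.9 with saline, a difference of -0.79 ± 0.42 (limma adjusted p = 1), and -0.64 ± 0.42 in the nerve (0.999). In the nerve, where the Dbp acrylamide arrays lay above saline, those of Per1 lay below it (308.7 and 275.3 against 409.7 and 523.9). The Per2 groups overlapped there. A link between the Period genes and Dbp was not tested. With their brightest probe sets Tef and Hlf, the relatives of Dbp that bind the same D-boxes, had differences of 0.05 ± 0.10 and -0.09 ± 0.18 in the nerve, 0.03 ± 0.10 and -0.12 ± 0.18 in the cord, and -0.18 ± 0.10 and -0.11 ± 0.18 in the cerebellum. In the nerve the acrylamide and saline groups of both overlapped with these probe sets, whereas those of Dbp were separate. Dimmer probe sets did not all share these orders. Tef 1369919_at lay above saline in the cerebellum (0.27 ± 0.19) and Hlf 1385585_at in the cord (0.21 ± 0.27), while the remaining ones overlapped there.

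**Figure D3:**
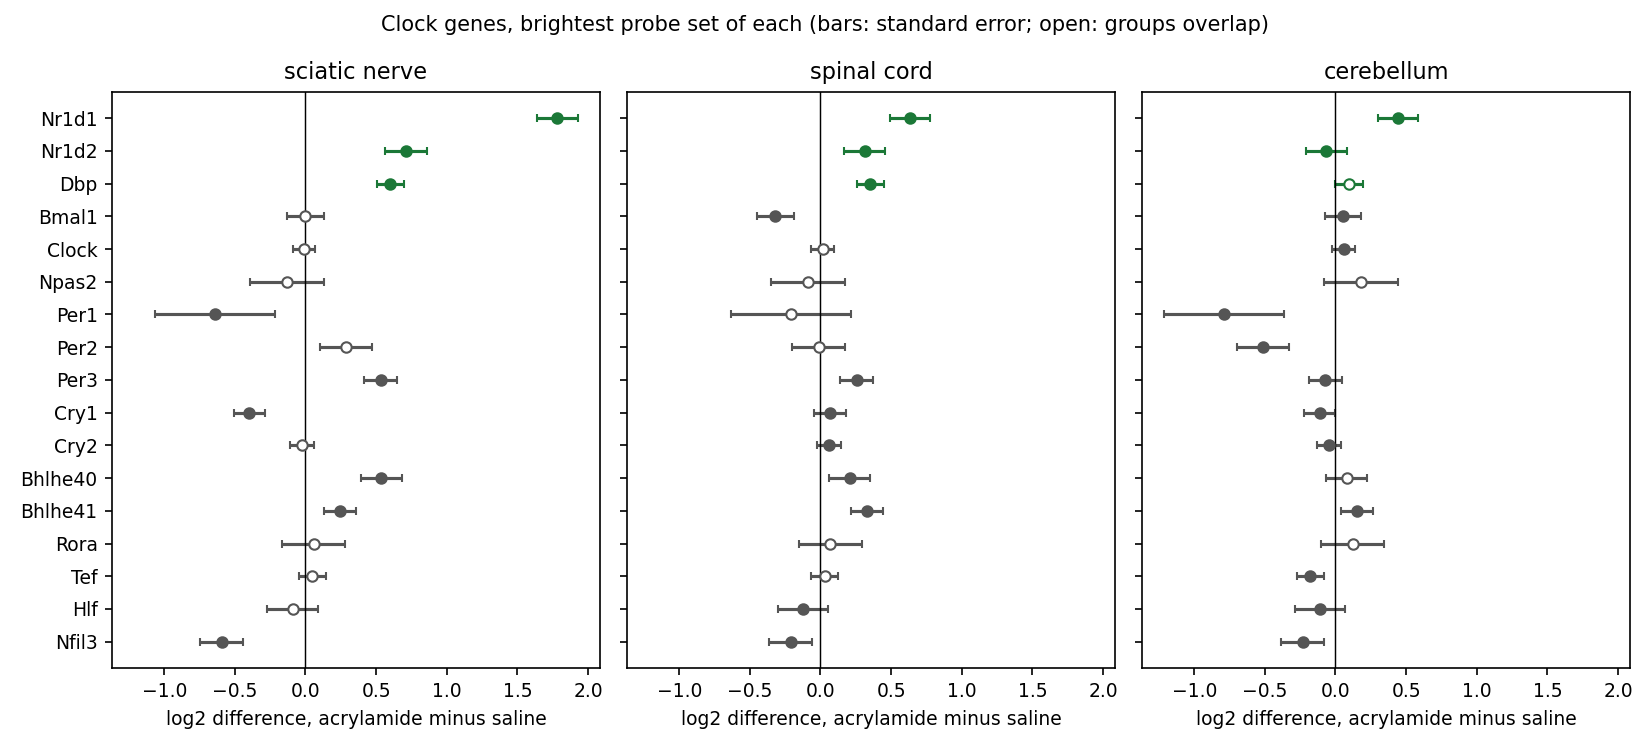
Log2 difference, acrylamide minus saline, of Nr1d1, Nr1d2 and Dbp (green) and 14 other clock genes (grey) by tissue, brightest probe set of each; bars are standard errors and open points mark overlapping groups. In the nerve Per3 and Bhlhe40 lie on the side of the 3 genes (0.53 and 0.54), Nfil3, Cry1 and Per1 on the other (-0.59, -0.40 and -0.64).

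Between the tissues in saline, more of the other clock genes were called lower than higher in each of the 3 comparisons, counting the brightest probe set of a gene. In the nerve against the cerebellum, 17 of 25 were called lower and 1 higher (Clock, 0.82, limma adjusted p = 2.04e-05), with a median log2 difference of -0.82 beside -0.14 over all probe sets, of which 39% were called lower and 30.6% higher. The Clock probe sets disagreed: 1389456_at was called lower in the nerve than in the cerebellum (-0.53, limma adjusted p = 0.00102), against the brightest one. In the cord against the cerebellum, 13 were called lower and 3 higher, with a median of -0.38 beside -0.06 and shares of 27.1% and 26% over all probe sets. In the nerve against the cord, 8 were called lower and 5 higher, with a median of -0.12 beside 0.04 and shares of 28.7% and 29.1%. The 5 higher in the nerve were Clock, Bmal1, Ncor1, Usp2 and Per3. Hlf, the relative of Dbp, was lower in the nerve than in the cord by -1.83 (limma adjusted p = 3.8e-05), the same direction as Dbp.

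The brightest probe sets of the genes beside Nr1d1 and Nr1d2 on their chromosomes had the opposite order in the nerve. Thra, which overlaps the 3′ end of Nr1d1, had 1069.0 and 1019.1 on the acrylamide nerve arrays and 1282.2 and 1528.4 on the saline nerve arrays with its brightest probe set, 1367726_at. The log2 difference was -0.42 ± 0.13 (limma adjusted p = 0.907), opposite in sign to the 1.78 of Nr1d1. The second Thra probe set, 1370691_a_at, had 378.7 and 361.4 with acrylamide and 455.9 and 418.2 with saline in the nerve, so both of these lay below saline there, while the groups of the third, 1380518_s_at, overlapped at signals of 33.44 or less. Thrb, next to Nr1d2, had 905.7 and 835.4 on the acrylamide nerve arrays and 1067.0 and 1013.1 on the saline nerve arrays, a difference of -0.25 ± 0.13 (limma adjusted p = 0.967). Of its other probe sets, 1378457_at and the dim 1370474_at also lay below saline in the nerve, and the dim 1387983_at lay above it, with 34.85 and 49.6 on the acrylamide arrays and 17.8 and 30.17 on the saline arrays.

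How closely the 3 genes moved together over the arrays was described with each array's log2 deviation from the mean of its tissue. Over 12 arrays, Pearson's r was 0.97 between Nr1d1 and Dbp (Spearman's rho 0.98), 0.85 between Nr1d1 and Nr1d2 1390430_at (0.83) and 0.85 between Dbp and Nr1d2 (0.88). Among 15806 probe sets, Nr1d1 ranked first in likeness to Dbp, and Dbp ranked 2 in likeness to Nr1d1. Without the nerve, over 8 arrays, r was 0.92 between Nr1d1 and Dbp, 0.51 between Nr1d1 and Nr1d2 and 0.62 between Dbp and Nr1d2. The deviations hold the acrylamide difference for which the genes were chosen. As a measure added after the data were seen, each array was instead set against the mean of its own group. This removes that difference and leaves 6 replicate differences, which were not shown to be independent. Over the probe sets fitted, those of the saline and acrylamide nerve correlated at 0.417. By this measure r was 0.77 between Nr1d1 and Dbp, 0.25 between Nr1d1 and Nr1d2 and 0.15 between Dbp and Nr1d2. The Nr1d2 probe sets disagreed here, since r with Nr1d1 was 0.55 for 1370541_at and 0.96 for the dim 1370540_at, above that of Dbp. By this measure Nr1d1 ranked 226 in likeness to Dbp and Dbp ranked 373 in likeness to Nr1d1. The values of an array share its scaling, and these correlations carry no p.

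**Figure D4:**
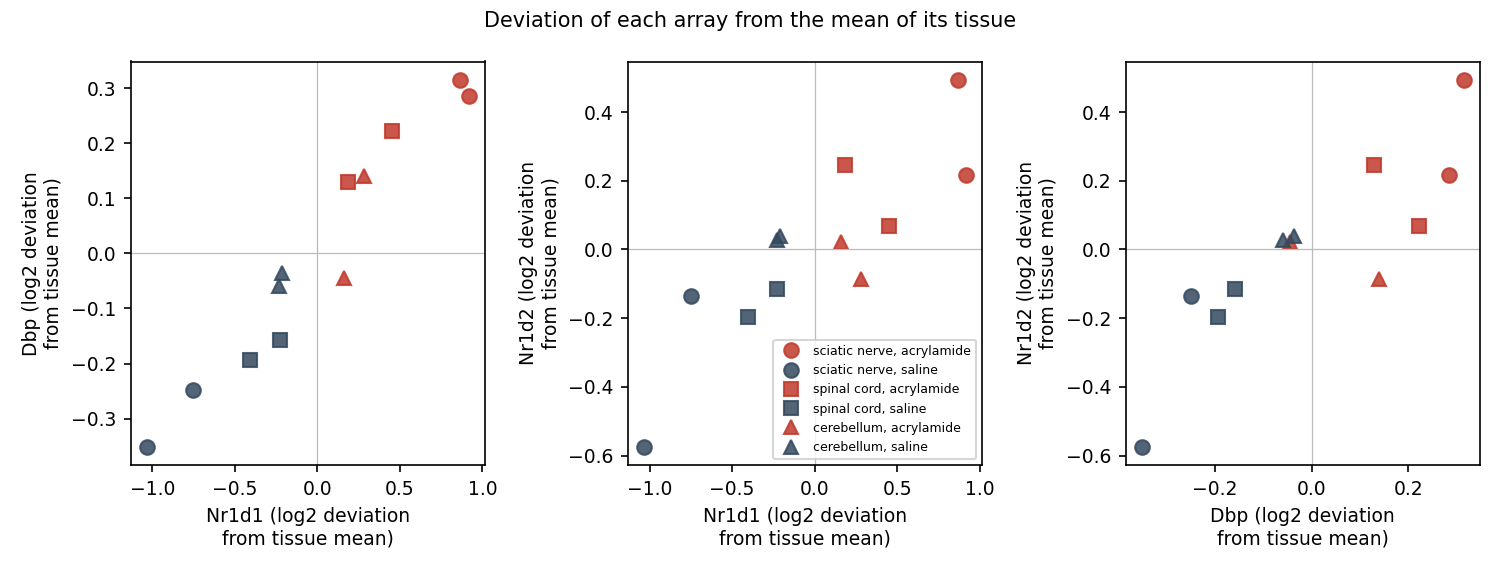
Log2 deviation of each array from the mean of the 4 arrays of its tissue, for Nr1d1 and Dbp, Nr1d1 and Nr1d2, and Dbp and Nr1d2 (1390430_at); red is acrylamide, dark blue saline, and the symbol gives the tissue. Nr1d1 and Dbp lie close to a line (r = 0.97), and Nr1d2 is looser (r = 0.85 with each).

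By deviation from the tissue mean, which holds the acrylamide difference, the genes most like Nr1d1 were Kctd15 (r = 0.98), Dbp, Stat3 (0.93), Cabcoco1 (0.93) and Socs5 (0.93). None of these was among the closest by deviation from the group mean, which were Pde3b, Zfp692, Nr1d2 1370540_at, Senp2 and Atf2. Kctd15 had 728.9 and 722.7 on the acrylamide nerve arrays and 566.2 and 545.0 on the saline nerve arrays, and 553.6 and 587.8 against 511.8 and 508.2 with saline in the cord. Stat3, a transcription factor of cytokine signalling, had 1330.8 and 1400.8 on the acrylamide nerve arrays and 1043.1 and 961.0 on the saline ones, and its r fell to 0.62 without the nerve. Socs5, of the suppressors of cytokine signalling, had an r of 0.54 without the nerve, and Kctd15 one of 0.94. The likeness of Stat3 and Socs5 thus lay largely in the nerve.

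For Dbp the closest by deviation from the tissue mean were Nr1d1, Kctd15 (0.97), Tmod3 (0.94), Gabarap (0.94) and Cox15 (0.93). For Nr1d2 1390430_at they were Ocln (0.96), the probe set Nr1d2 1370541_at (0.96), Srsf6 (0.96), Kctd1 (0.94) and Vopp1 (0.93). By deviation from the group mean the closest were others, led by Myg1 for Dbp and by Osbpl3 for Nr1d2 1390430_at. Tmod3, a capping protein of actin filaments, had 1373.0 and 1614.2 on the acrylamide nerve arrays and 1005.9 and 960.7 on the saline ones. Ocln, the tight junction protein occludin, had 477.6 and 437.1 with acrylamide and 402.6 and 341.5 with saline in the nerve. In both, the nerve groups did not overlap. Without taking off the tissue mean, the r between Nr1d1 and Dbp over 12 arrays was 0.40, Nr1d1 ranked 6365 in likeness to Dbp and Dbp 3111 in likeness to Nr1d1. On the acrylamide arrays Dbp was lowest in the nerve and Nr1d1 highest there.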

How the data were processed

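Messenger RNA was measured on 12 Affymetrix rat arrays with biotin-labelled cRNA, per the labels. The authors deposited 1 intensity signal for each probe set, from GCOS 1.1 per the submitters' processing notes. How GCOS corrected background is not stated in the sources used here. After trimming 2% at each end the mean was about 500.1 on every array, so each had been scaled as a whole. Arrays were grouped by tissue and treatment from their titles. The labels do not tie the 3 tissues to shared rats, and p-values measure the spread between pools of 2 rats.

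From these values, log2(signal + 16) was analysed, which understates differences of dim probe sets. Of 31042 probe sets that are not controls, 21332 entered the fit, those whose mean in a tissue exceeded the 40th percentile of tissue means (112.3). One limma 3.58.1 model (lmFit, eBayes with trend, R 4.3.3) held a mean for each of 6 groups, leaving 6 residual degrees of freedom beside 3.13 prior ones. P-values are two-sided, adjusted by Benjamini-Hochberg within a contrast over all probe sets tested, with a threshold of 0.05. The fit was tested on simulated data. Tissue differences in acrylamide arrays were planned with a test and are given without one. In the platform annotation, 20832 probe sets carry a single symbol, 436 carry several and 9780 carry no symbol. Promoter windows and gene positions are from RefSeq, GRCr8.

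The members and lists were chosen with earlier results of these data known. Named genes were all probe sets of Nr1d1, Nr1d2 and Dbp, the 4 other clock genes with the smallest p in an acrylamide contrast, Bmal1, Clock, Npas2, Cry1, Nfil3, Per1, Per2, Per3, Tef, Hlf, Thra and Thrb, and the 5 single-symbol probe sets with the highest r to each gene's brightest probe set. Other genes named were chosen after their values were seen. The alternatives tried were median centring, quantile normalization, a pseudocount of 1 or 64, a 60th percentile filter or none, eBayes without trend, only the groups compared, a replicate block, all probe sets per gene, each array left out, and 3 arrays left out together (nerve replicate 1 of both groups and saline cord replicate 1). Averaging the acrylamide arrays into the saline tissue differences was also tried and was not planned.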

Additional observations from a re-analysis of the deposited data

Results flagged for a closer look

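The 35 gene probe sets looked at were all those of Nr1d1, Nr1d2 and Dbp, and the brightest of each other clock gene, Thra and Thrb. Dimmer probe sets of those other genes were not counted. Of the 35, 6 had both acrylamide arrays on one side of both saline arrays in one tissue and on the other side in another. The share of all probe sets with such opposite orders was not counted. In a single tissue, 13.3% to 17.7% of all probe sets lay above saline and 12.9% to 16.6% below it, so no excess is claimed. The difference between tissues was not tested in any of the 6. Nr1d2 (1390430_at) differed by 0.71 on the log2 scale in the sciatic nerve and 0.31 in the spinal cord, and by -0.065 in the cerebellum. Per3 had the same order, with 0.53 in the nerve, 0.26 in the cord and -0.071 in the cerebellum. Cry1 was below saline in the nerve (-0.40) and the cerebellum (-0.11) and above it in the cord (0.066). Cry2, the other cryptochrome, was above saline in the cord (0.062) and below it in the cerebellum (-0.044). Bmal1 was below saline in the cord (-0.32) and above it in the cerebellum (0.052), and Alas1, the first enzyme of haem synthesis, likewise (-0.15 and 0.17). The cerebellar values of Nr1d2, Per3 and Bmal1, the cord values of Cry1 and Alas1 and both values of Cry2 were smaller than their standard errors.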

How the results depend on the processing

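The log2 differences of Nr1d1, Nr1d2 and Dbp between acrylamide and saline kept their sign in the nerve and, for Nr1d1, Dbp and the brighter Nr1d2 probe sets, in the cord under every alternative run. With a pseudocount of 64 the nerve difference was 1.55 for Nr1d1 and 0.53 for Dbp, and without nerve replicate 1 of both groups and saline cord replicate 1 (the 3 arrays below) it was 1.95 for Nr1d1. The saline difference of Nr1d1 between nerve and cord turned to 0.071 under quantile normalization, 0.070 under median centring and 0.46 when the acrylamide arrays were averaged in, and ran from -0.25 to 0.029 with each array left out. That of Nr1d2 (1390430_at) was -0.29 under median centring and -0.47 in a fit of only the groups compared, where neither passed, and ran from -0.69 to -0.25 with each array left out. In the acrylamide arrays Nr1d1 between nerve and cerebellum was 0.27 under quantile normalization and 0.32 under median centring. Dbp there was -0.94, -0.89 and -0.92 between nerve and cord under quantile normalization, median centring and a pseudocount of 64, and -1.21 between nerve and cerebellum under median centring. The r between Dbp and Nr1d1 was 0.40 without subtracting tissue means and 0.77 from group means, that between Nr1d2 and Nr1d1 0.69 and 0.25, and that between Nr1d2 and Dbp 0.85 and 0.15. The cause of these shifts was not tested.

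Probe sets called for acrylamide over the whole array ranged from 0 to 2 in the cerebellum, 0 to 1 in the cord, 0 to 21 in the nerve and 0 to 35 for the average with each array left out. In the cerebellum 1 was called with only the groups compared and 2 without the 3 arrays. In the nerve 2 were called under quantile normalization, a pseudocount of 64 or no filter, 0 with only the groups compared and 335 without the 3 arrays, which leaves 1 nerve array per group, with the spread taken from the other groups. For the average, 4 were called under quantile normalization, 1 with the 60th percentile filter or without trend, and 150 without the 3 arrays, when 1 other clock gene was called. The main fit did not pair replicate numbers across groups. Of 15 correlations between groups of the difference of replicates 1 and 2, from -0.064 to 0.417, 5 exceeded 0.1. The highest was between the saline and acrylamide nerve groups, whose replicate 1 arrays both carried cerebellar markers. With the replicate block, 0 probe sets were called in the nerve and 6 for the average, and no call of Nr1d1, Nr1d2 or Dbp changed. With 2 arrays per group, 1370540_at had the widest standard error of the 5 probe sets (0.30).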
